A study of Mus musculus with 2239 samples.

Results

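Ribosomal protein genes were described in single cells of a Foxp3 reporter sort from mouse spleen. Members were the rows of the count table named Rpl or Rps with a number, together with Rplp0 to Rplp2 and Rpsa. S6 kinase rows and rows marked as pseudogenes were not taken. Of 23725 gene rows, 86 met this rule and 84 had at least 1 UMI (unique molecular identifier, a tag that counts each captured mRNA molecule once). The least abundant member taken was Rpl3l, with 3 UMIs, and the rows left out for having none were Rpl37rt and Rpl10l.

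The cells came from male B6 mice, or a single mouse, aged 7 months, that carried a green fluorescent reporter of Foxp3, the transcription factor that defines regulatory T cells (Tregs). They were sorted as live, TCRb+, CD4+ and GFP+ cells and encapsulated by inDrops, which primes reverse transcription at the poly(A) tail. The tissue label says spleen, while the label of the sample type also names the colon. Each of the 2239 labelled samples is 1 cell of 1 library, so no group had a replicate, no test was made, and every interval below covers counting error alone. The labels do not say whether the library pooled animals.

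The description covers the cells with 500 UMIs or more, 91.8% of those in the table, and the other 8.22% were set aside. These cells had a mean of 1049 UMIs, with totals from 500 to 4329. Clustering on 1000 genes, none of them a ribosomal protein gene, gave 10 clusters. These genes were scaled to each cell's total UMIs, ribosomal ones included. The clusters are therefore not independent of the ribosomal share compared between them below. The names below come from marker lists, and unnamed clusters are called by leading genes. Cluster 6 was led by B cell markers, at 22340 counts per 1000000 UMIs (CPM) over the 9 genes of that list, but it also held plasma cell, neutrophil and myeloid markers, at 4251, 4584 and 5290 CPM. It is called the mixed B cell-like cluster. Foxp3 stood at 290.9 to 575.2 CPM in the 8 T cell clusters, at 62.1 CPM in the mixed cluster and at 0 in the small NK/ILC-like cluster, where a count of 0 allows up to 169.5 CPM (3 UMIs of the total).

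A ribosome is built from a small (40S) and a large (60S) subunit, each an rRNA scaffold that carries many small proteins, most of which are present once per particle. Genes of these proteins are transcribed throughout the genome, and their mRNAs share a terminal oligopyrimidine (TOP) tract, a C followed by a run of pyrimidines at the first bases, through which mTOR signaling controls their translation. T cell activation is known to raise ribosome production together with the mRNAs of many other genes.

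Ribosomal protein genes made up 35.4% of all UMIs (764188 of 2156277; exact binomial 95% interval 35.38 to 35.50%). A median of 74 of the 84 members was seen in each cell. The large-subunit members gave 55.7% of the ribosomal UMIs from 51 rows, and the small-subunit members gave 44.3% from 33 rows.

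Levels among the members fell into a dense group and a thin tail. Levels are in CPM with exact Poisson 95% intervals. The assay tags the 3′ end of a transcript once, so these levels were not divided by transcript length. In the dense group, 76 members had more than 1000 CPM, and all 76 stood among the 100 most abundant genes of the table. They spanned 2105.5 to 9422 CPM, a 4.48-fold range with a coefficient of variation of 39.5%. Over all 84 members the median was 4119 CPM. Above 1000 CPM, the median was 4944 CPM for 31 small-subunit genes and 4052 CPM for 45 large-subunit genes, with ranges that overlapped almost whole.

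The most abundant member was Rps24, at 9422 CPM (9293 to 9553). Rpl30 followed at 9229 CPM (9102 to 9358), and these intervals overlapped. The rest of the top 10 included Rps23, Rplp1, Rps27, Rpl12, Rps16, Rpl23 and Rpl41, from 8945 CPM for Rps23 to 6568 CPM for Rpl41. The top 10 held 23.1% of the ribosomal UMIs. Neighbors in this order were mostly not separable, since 70 of 83 adjacent pairs had overlapping intervals. Dividing by annotated transcript length kept 6 of these 10 in the top 10, with a Spearman rank correlation of 0.82 between the scales over 84 members, and placed Rps27 first.

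Members of the P stalk, the lateral arm of the large subunit that recruits elongation factors, were unequal. Rplp1 stood at 8900 CPM, Rplp2 at 4699 CPM and Rplp0, the anchor on which the P1 and P2 dimers sit, at 4378 CPM. Rpl12, which binds rRNA at the base of this arm, was at 8254 CPM. Rpsa, the laminin receptor homolog on the head of the small subunit, was at 5299 CPM. Rplp2 was thus nearer to Rplp0 than to Rplp1, with which its protein pairs.

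The thin tail consisted of 8 members at or below 1000 CPM, and 7 of them were paralog rows, that is, second genes that resemble a standard ribosomal protein gene. Of these, Rps4l is annotated as a transcribed pseudogene, though its row name does not mark it as such. Rpl22l1 was highest, at 550.95 CPM (520 to 583), next to 2105.5 CPM for Rpl22, whose loss is known to impair alpha-beta T cell development. Rpl22l1 thus made up 20.7% of the UMIs of that pair. Rps27l was at 179.5 CPM, or 2.13% of the UMIs it shared with Rps27, and Rpl7l1 was at 94.1 CPM, or 2.69% of its pair with Rpl7. Rps27l is known as a p53 target, and Rpl7l1 belongs to a family that includes a nucleolar factor of large-subunit assembly.

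The other paralog rows were close to the detection limit. Rpl36al had 37 UMIs (0.541% of its pair with Rpl36a), and Rps4l had 8 UMIs (0.0750% of its pair with Rps4x). Rpl39l, known from testis, had 4 UMIs beside 8738 for Rpl39, and Rpl3l, known from heart and skeletal muscle, had 3 UMIs beside 5053 for Rpl3. All 3 UMIs of Rpl3l lay in the mixed B cell-like cluster. The remaining low member, Rpl26, is a standard large-subunit protein, yet it stood at 178.5 CPM (161.2 to 197.3), 11.8-fold below Rpl22, the next standard gene above it.

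**Figure D1:**
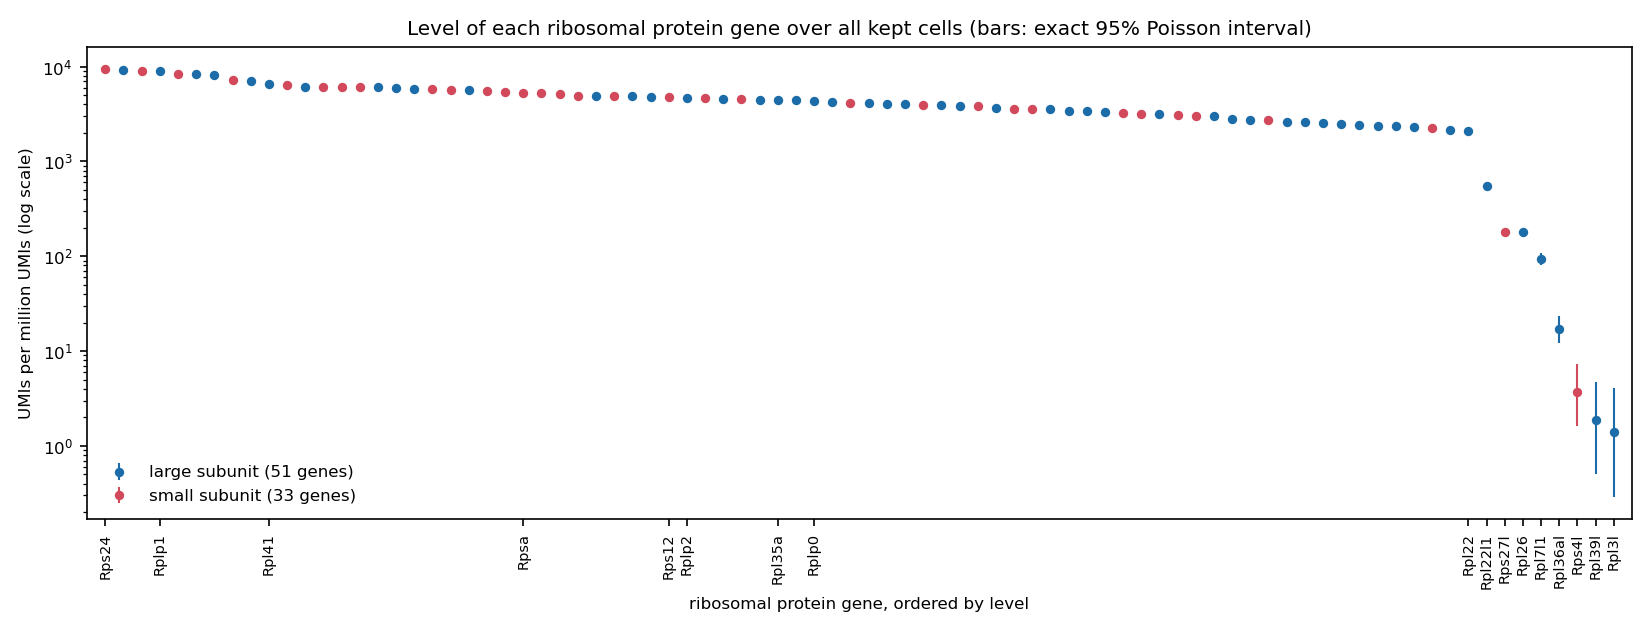
Level of each of the 84 ribosomal protein genes in CPM (log axis), ordered from highest to lowest and colored by subunit, with exact 95% Poisson intervals and names for some members discussed in the text. The 76 members above 1000 CPM form a continuous slope from 9422 to 2105.5 CPM, and 8 members, 7 of them paralog rows, drop to between 550.95 and 1.39 CPM.

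Sequence sharing bears on all of these levels. The last 300 bases of each member's transcripts were searched for 31-base words that also occur in the annotated transcripts of other genes, pseudogenes included. For each member the protein-coding transcript with the highest share was kept, so the values are upper ends over its transcripts. By this measure the median member shared 82.2% of its words, and 25 of 83 members shared at least 90%. How reads that match several places were counted was not given in the sources used here, so levels of such members are uncertain. For Rpl26 91.9% of words were shared with other genes, of which 5 shared at least 50 words each. The share was 100% for Rps12 and Rps27, 76.3% for Rpl41, 30.7% for Rps27l and 0% for Rpl12. Whether shared words set the level of Rpl26 was not tested.

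The ribosomal share differed between cells more than counting allows. Over all kept cells it had a median of 35.8%, a 5th percentile of 22.6% and a 95th percentile of 45.5%. Its standard deviation was 7.17 percentage points, where counting alone at these totals gives 1.56. Depth moved with it: with cells ordered by total UMIs and cut into 4 bins of like size, the pooled share was 32.01% in the bin of the shallowest cells and 34.4, 36.8 and 36.5% in the following bins.

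Clusters differed in the same measure. The share was 41.3% in cluster 0 (Igfbp4, Ccr7; 19.9% of the cells), 36.9% in cluster 2 (resting Treg-like; 14.8%) and 35.9% in cluster 8 (proliferating-like; 3.504%). It was 35.7% in cluster 1 (Gsto1, Rgs1; 17.03%), 34.996% in cluster 3 (Tgtp2, Igtp; 14.5%), 34.2% in cluster 4 (Egr1, Nr4a1; 12.5%) and 32.6% in cluster 7 (Ifit1, Isg15; 3.55%). The lowest shares were 28.8% in cluster 9 (NK/ILC-like; 16 cells), 27.998% in the mixed B cell-like cluster (5.94%) and 25.9% in cluster 5 (activated Treg-like; 7.49%). Every cluster overlapped others cell by cell, since single cells of cluster 0 ranged from 27.5 to 54.2% and those of cluster 5 from 10.4 to 40.9%.

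The balance of the subunits moved little beside these differences. Small-subunit genes gave between 43.5% and 44.8% of the ribosomal UMIs in all 10 clusters, while the ribosomal share itself ran from 25.9 to 41.3%.

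**Figure D2:**
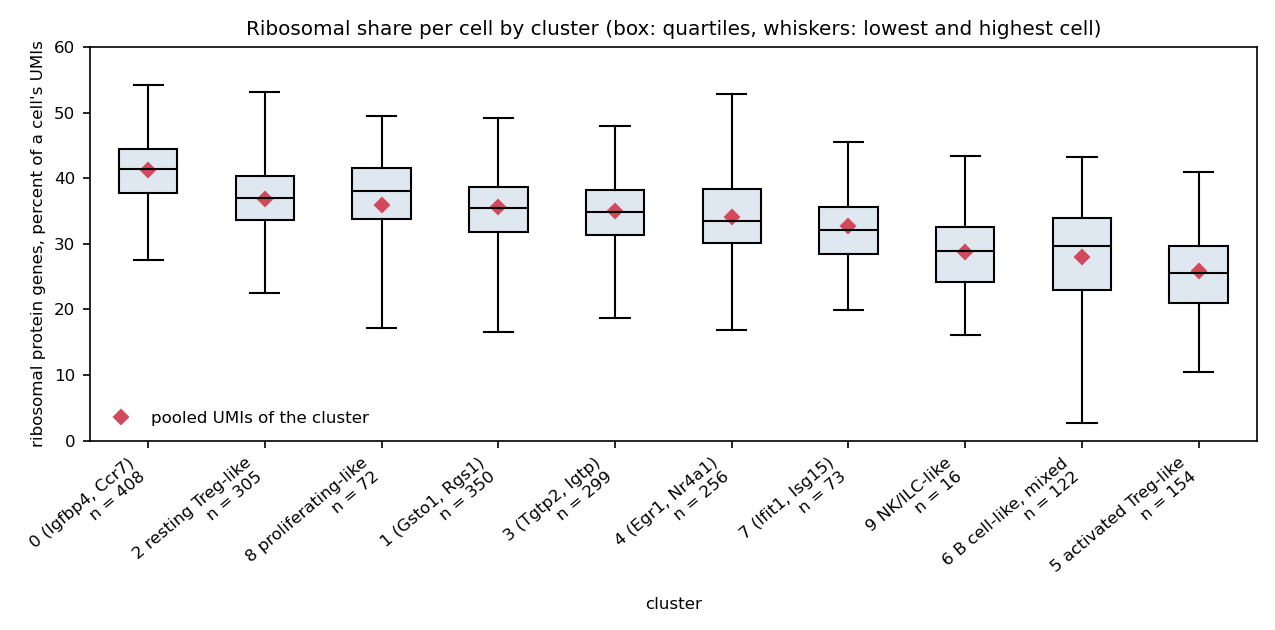
Percent of a cell's UMIs that come from ribosomal protein genes, by cluster, with boxes at the quartiles, whiskers at the lowest and highest cell, and diamonds at the pooled share. Pooled shares run from 41.3% in cluster 0 to 25.9% in the activated Treg-like cluster, and the ranges of single cells overlap between all clusters.

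Activated Treg-like cells, named from a list with Klrg1, Icos and Maf, were compared with resting Treg-like cells, named from a list with Ccr7, Lef1 and Igfbp4. Clusters 0 and 3 also held resting markers, at 2630 and 3177 CPM over the list, but did not pass the naming rule and were not in this comparison. The activated list of 10 genes stood at 3417 CPM in the activated and 164.3 CPM in the resting class, and the resting list of 9 genes at 992 and 3508 CPM. Median depth was 929.5 and 925 UMIs per cell, and mean depth was 1060.4 and 958.1. Activated cells held a mean of 275 ribosomal and 786 other UMIs, and resting cells 353 and 605. On the CPM scale, fewer ribosomal and more other mRNAs cannot be told apart. Markers of other cells were low in both and not equal. The B cell list of 9 genes stood at 91.9 CPM in the activated and 23.95 CPM in the resting class (5 and 4 genes at 0), the neutrophil list at 153.1 and 23.95 CPM, and the myeloid list at 643 and 311.4 CPM. Their part in the results was not tested.

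Nearly all members were lower together in activated cells. The ribosomal share was 25.9% in activated and 36.9% in resting cells, a ratio of 0.702 (exact conditional 95% interval 0.695 to 0.710). Of 79 members with at least 50 UMIs over both classes, 76 had a lower CPM in activated cells, 73 of them with an interval below 1, and their median log2 ratio was −0.53. Among all 1322 genes with that many UMIs, 512 (38.7%) were lower and the median log2 ratio was 0.18. At 1.5-fold or more, 24 of the 79 members were lower, where 9.91% of all genes were. They included Rplp2, Rpl12, Rpl5, Rpl7, Rps19, Rps24 and Rps28. A single member, Rps27l, was at least 1.5-fold higher, where 22.1% of all genes were. The count of 24 was between 1 and 5 under 4 other ways to define the classes and 63 on the scale of non-ribosomal UMIs. In all 10 alternatives that gave a ratio the share stayed lower in activated cells (log2 ratio −0.55 to −0.25, against −0.51 here). These include leaving out Scrublet doublet calls, of which there were 0, so that setting repeats the main value.

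The shared trend is the change of the ribosomal total, and a member departs from it when its share of ribosomal UMIs changes. On that scale 66 of the 79 members lay within 1.2-fold of the trend, and the intervals of 51 held 1. A departure was called at 1.3-fold with an interval that excludes 1. By this rule 3 members departed upward, Rps27l, Rps12 and Rpl41, and 1 departed downward, Rpl35a. Of all genes, 51.1% departed upward and 1.82% downward from the ribosomal total. Set against their own total, the non-ribosomal UMIs, 7.89% of the other genes that did not define clusters departed upward and 11.9% downward.

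Rps12, a protein of the small-subunit head, was at a like level in both classes while most members were lower in activated cells. It stood at 4593 CPM in activated cells (750 UMIs) and 4237 CPM in resting cells (1238 UMIs), a ratio of 1.08 (0.989 to 1.19). Its share of ribosomal UMIs was 1.77% against 1.15%, 1.54-fold above the trend (1.41 to 1.69). Single cells overlapped, and their medians ran the other way, at 3.5 UMIs in activated and 4 in resting cells: the middle 50% of activated cells held 2 to 6.75 UMIs and of resting cells 2 to 5, and the highest activated cell gave 4.13% of the class's Rps12 UMIs.

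Rpl41, the smallest protein of the ribosome, which lies where the subunits meet, showed a like pattern. It stood at 6246 CPM in activated and 6105 CPM in resting cells, a ratio of 1.02 (0.946 to 1.11). Its share of ribosomal UMIs was 2.41% against 1.66%, 1.46-fold above the trend (1.35 to 1.57).

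Rps27l was the member that was higher on the CPM scale too. It stood at 263.3 CPM in activated cells (43 UMIs) and 167.7 CPM in resting cells (49 UMIs), a ratio of 1.57 (1.02 to 2.41). Relative to the trend this was 2.24-fold (1.45 to 3.44). Its partner Rps27 was close to the trend, so Rps27l made up 4.23% of the pair in activated cells (3.08 to 5.66%) and 1.89% in resting cells (1.40 to 2.49%).

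Rpl35a, a large-subunit protein mutated in Diamond-Blackfan anemia, went the other way. Of 9 alternatives that changed the cells, UMIs, reference or trend, it passed the limit in 1, while Rps12 did so in 9, Rpl41 in 8 and Rps27l in 8. It stood at 2639 CPM in activated and 4952 CPM in resting cells, a ratio of 0.533 (0.478 to 0.594), or 0.759 relative to the trend (0.680 to 0.845). Rpl8 lay just outside the limit of 0.769, at 0.770 (0.661 to 0.893), and so did Rpsa at 1.29 (1.18 to 1.40), where the limit is 1.3. The remaining members at the ends of this order were Rps28, Rps19, Rps16 and Rps18 (0.826, 0.829, 0.831 and 0.866) and Rpl26 and Rpl7a (1.27 and 1.26), of which Rpl26 rested on 75 UMIs and had an interval that held 1.

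**Figure D3:**
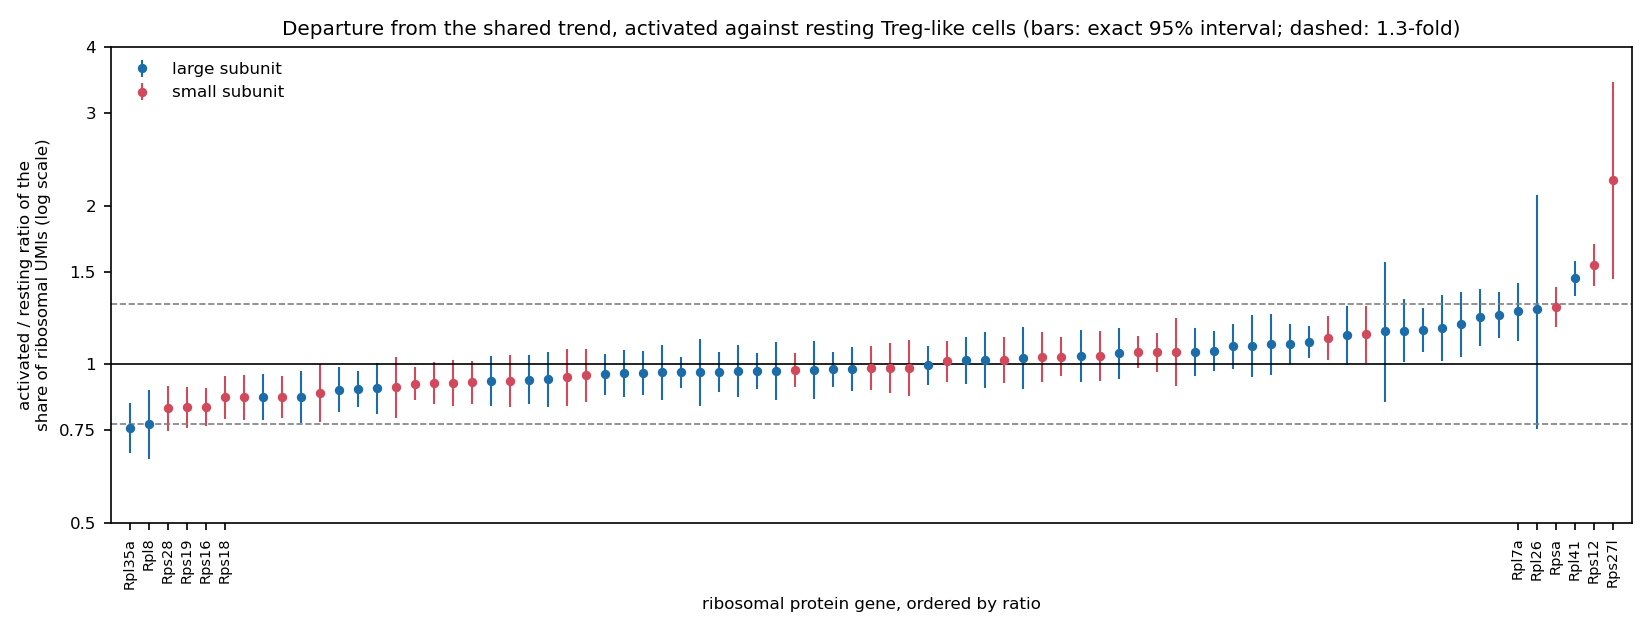
Ratio of each member's share of ribosomal UMIs, activated over resting Treg-like cells (log axis), for the 79 members with at least 50 UMIs over both classes, with exact 95% intervals, dashed lines at 1.3-fold and names for 6 members at each end. Rps27l (2.24), Rps12 (1.54) and Rpl41 (1.46) stand above the upper line and Rpl35a (0.759) below the lower one.

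The start sites of these members are shown because the TOP tract is the feature that ties the family together. Each line gives 30 bases from 10 bases before a RefSeq transcript start to 20 bases from it on (GRCm38.p6, strand in parentheses, read on that strand 5′ to 3′), and capitals mark the longest run of C and T.
Rps12 chr10:23787190-23787219 (−): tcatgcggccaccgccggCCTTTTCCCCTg
Rpl41 chr10:128549149-128549178 (−): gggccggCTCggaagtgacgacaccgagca
Rps27l chr9:66946076-66946105 (+): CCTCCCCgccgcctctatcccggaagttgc
Rpl35a chr16:33056472-33056501 (+): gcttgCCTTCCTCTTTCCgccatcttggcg
Rpl12 chr2:32961702-32961731 (+): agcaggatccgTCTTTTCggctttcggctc
Rpl7l1 chr17:46782637-46782666 (−): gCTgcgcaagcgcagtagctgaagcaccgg

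In the printed windows the longest runs had 11 pyrimidines for Rps12, 13 for Rpl35a and 3 for Rpl41. Whether these runs relate to the departures was not tested. Of the 84 members, 63 matched a RefSeq start, with 75 starts in all. A run of at least 7 pyrimidines, on the strand as printed and anywhere in the window, was present at 34 of the 75 starts (45.3%). It was present at 17.9% of the 32851 windows of all genes. Such a run can lie before the start, as for Rps27l, or begin after it, as for Rps12, so it is not in itself a TOP tract. Rps27l and Rpl35a have several annotated starts, of which the 1 with the longest run is printed for each. At the starts not printed, the longest runs were 4 and 5 for Rpl35a and 4 for Rps27l. A match describes the window only, since the start used in these cells was not measured.

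Each T cell cluster was then compared with all others. These comparisons share their cells, so they are not independent. Shares of all genes departing are set against the ribosomal total, here and for the mixed B cell-like cluster. A difference in ribosomal share therefore moves other genes the opposite way by construction. Such shares are thus not a like-for-like measure for members. Cluster 5 is the activated Treg-like class itself, so its values repeat the comparison above with another reference. The members departing upward from the ribosomal total there were Rps12, Rpl41 and Rps27l, where 35.6% of all genes departed upward, and none departed downward, where 0.659% did. In cluster 4, led by the immediate early genes Egr1 and Nr4a1, Rps27l, Rpl7l1 and Rps12 departed upward, where 13.6% of all genes did, and no member departed downward, where 4.05% did.

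In cluster 4, Rps27l was at 278.2 CPM against 162 in the other T cells, 1.83-fold above the trend (1.42 to 2.34). Rpl7l1 was at 132.6 CPM against 81.1, 1.74-fold above the trend (1.195 to 2.48), and Rps12 was at 5811 CPM against 4549, 1.36-fold above it (1.29 to 1.43). Rps2, which lines the mRNA entry of the small subunit, was just below the 1.3-fold limit there, at 1.29 (1.21 to 1.38), and Rpl41 was at 1.26 (1.2004 to 1.31).

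In cluster 0, with the highest ribosomal share, a pair of paralog rows was low. Rps27l departed downward, at 129.5 CPM against 195.3 and 0.551 relative to the trend (0.412 to 0.727), and so did Rpl7l1, at 71.04 CPM against 94.7 and 0.623 (0.416 to 0.911), while Rpl22l1, the most abundant paralog row, was at 1.02 (0.892 to 1.16). Among all genes 34.2% departed downward there, and 0.0399% upward, where no member did. In cluster 7, led by interferon-induced genes, Rpl7l1 departed upward on 12 UMIs, 2.40-fold (1.22 to 4.31), where 5.87% of all genes did. No member departed downward there, where 0.479% of genes did.

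Clusters 1, 2, 3 and 8 held no departing member in either direction. The background upward and downward was 3.07% and 2.47% of all genes in cluster 1, 2.51% and 5.69% in cluster 2, 5.77% and 3.15% in cluster 3, and 2.1% and 1.42% in cluster 8. In the proliferating-like cluster 8 the ribosomal share was 0.999 of that in the other T cells (0.988 to 1.01). The highest members there relative to the trend were Rpl27, Rpl41 and Rps3a1 (1.11, 1.10 and 1.09), and the lowest were Rpl7l1, Rpl26 and Rpl32 (0.783, 0.832 and 0.872). Intervals held 1 for Rpl27 (0.978 to 1.26), Rpl7l1 (6 UMIs in cluster 8, 0.283 to 1.74) and Rpl26 (13 UMIs, 0.438 to 1.44). Those of Rpl41, Rps3a1 and Rpl32 did not.

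The mixed B cell-like cluster was compared with all T cell clusters. Its ribosomal share was 0.778 of theirs (0.770 to 0.787), and 76 of 80 members had a lower CPM, as 53.5% of all genes did, with 6 at least 1.5-fold lower where 24.7% of all genes were, and 1 at least 1.5-fold higher where 18.1% were. Rpl12 departed downward, at 4809 CPM against 8489 and 0.728 relative to the trend (0.671 to 0.789), where 2.9% of all genes departed downward. Rpl7l1 (2.46; 1.505 to 3.84) and Rps12 (1.32; 1.21 to 1.43) departed upward, where 17% of all genes did. Rps27l was at 1.39 with an interval that held 1 (0.886 to 2.08). At the low end Rplp0 and Rpl5 followed Rpl12, at 0.788 and 0.811. Since this cluster held several cell types, these values belong to the mixture.

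Across all 10 clusters, Rps12 took 1.77% of the ribosomal UMIs in cluster 5, 1.73% in the mixed B cell-like cluster and 1.70% in cluster 4. In the other 7 clusters it took from 1.10% (cluster 3) to 1.37% (cluster 9, with an interval of 1.07 to 1.73%). Rpl41 took 2.41% in cluster 5, 2.35% in cluster 9, 2.26% in the mixed B cell-like cluster and 2.21% in cluster 4, then 1.996% in cluster 8. In the remaining 5 clusters it took 1.66 to 1.73%. Clusters 4, 5 and 6 held the 3 highest values of Rps12 and 3 of the 4 highest of Rpl41. Rpl12 ran from 1.72% in the mixed B cell-like cluster to 2.53% in cluster 0. Rpl35a was lowest in cluster 5, at 1.02%, and between 1.19% and 1.37% in all others.

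**Figure D4:**
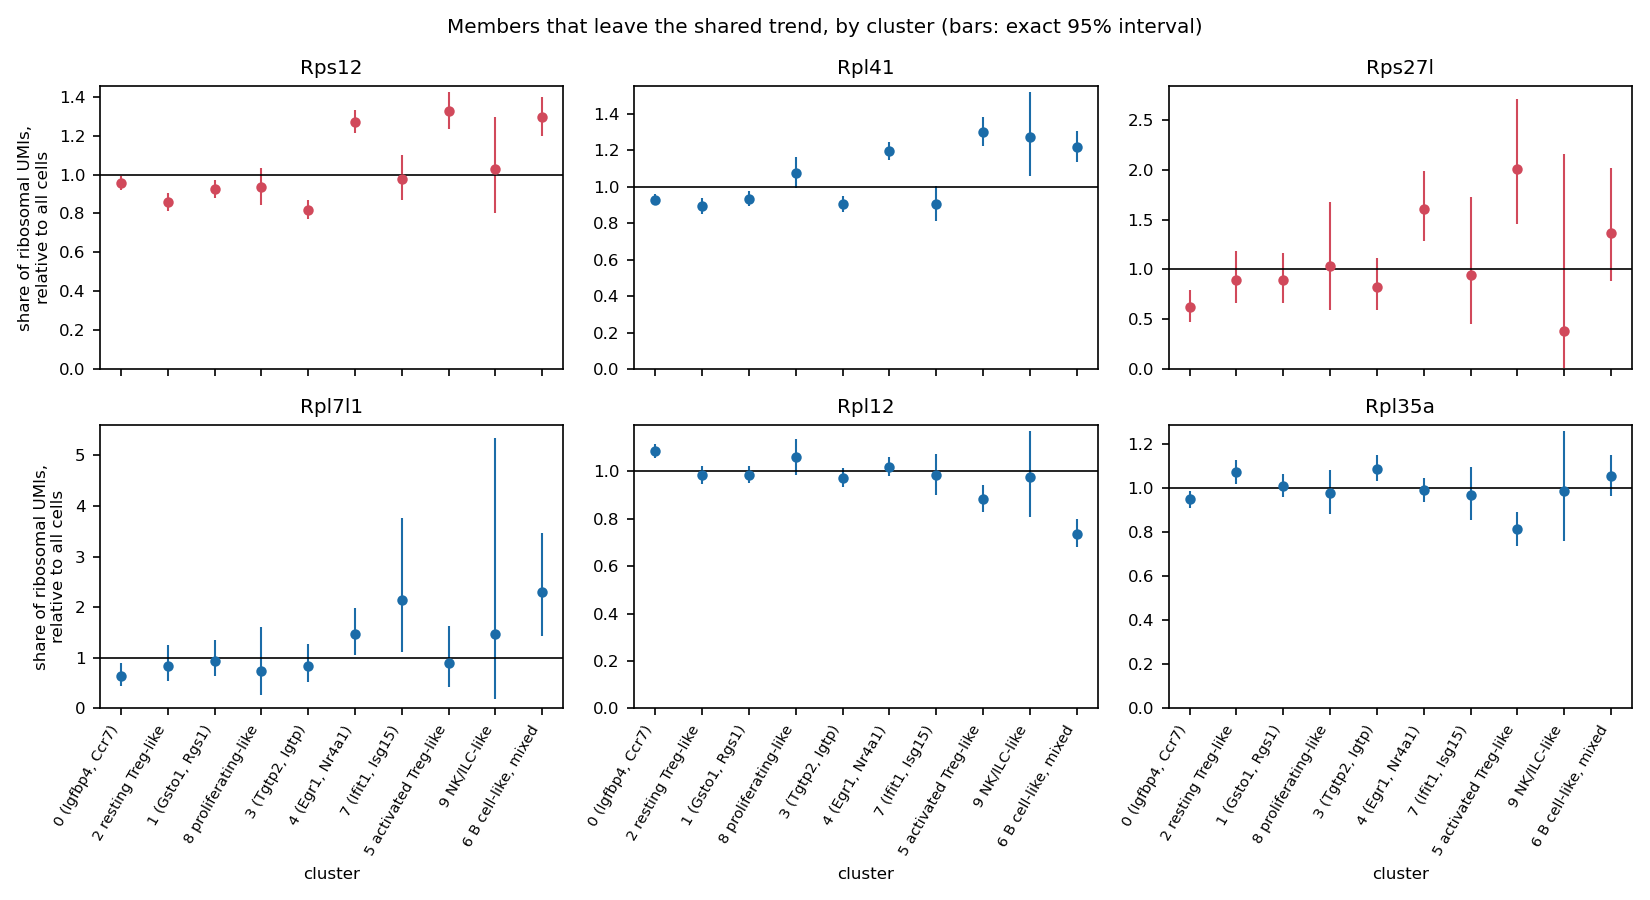
Share of ribosomal UMIs of 6 members in each of the 10 clusters, relative to all kept cells (linear axes from 0, exact 95% intervals). Rps12 and Rpl41 are high in clusters 4, 5 and 6, Rps27l reaches 2.01 in cluster 5 and 1.61 in cluster 4, Rpl7l1 is high in clusters 6 and 7, Rpl12 is low in cluster 6 at 0.738, and Rpl35a is low in cluster 5 at 0.813.

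The paralog shares also differed between clusters. Rpl7l1 made up 5.80% of its pair with Rpl7 in the mixed B cell-like cluster (3.67 to 8.66%) and 5.91% in cluster 7 (3.09 to 10.1%), against 1.78% in cluster 0 (1.23 to 2.48%). Rps27l ran from 1.41% of its pair in cluster 0 (1.08 to 1.80%) to 4.23% in cluster 5, leaving aside cluster 9 with 1 UMI. Rpl22l1 was steadier, from 16.9 to 23.4% of its pair, with intervals that all overlapped.

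A single measure of departure over all clusters is the dispersion, the chi-square of a member's UMIs given the ribosomal UMIs of each cluster, divided by its degrees of freedom. It is 1 where only counting error acts, and for a given fold it grows with a gene's UMIs, so it ranks abundant members first. The median over the 84 members was 2.34. Among 78 other genes with at least 1000 UMIs that did not define clusters, the median was 3.70 and the highest value 107.2. UMIs per gene differ between these sets, so the values are not a like-for-like measure. The highest values among members were 32.6 for Rps12, 28.8 for Rpl41, 12.4 for Rpl12, 10.7 for Rps2 and 8.73 for Rps19. Rps19 is a small-subunit protein also mutated in Diamond-Blackfan anemia. At the other end 9 members were at or below 1, and Rpl23, with 7124 CPM, had 0.344. Between the lowest and highest cluster, the share of ribosomal UMIs differed by a median of 1.25-fold for the 76 members above 1000 CPM, and by at most 1.5-fold for 66 of them. It differed by 1.62-fold for Rps12 and 1.46-fold for Rpl41, and, on far fewer UMIs, by 3.54-fold for Rpl7l1 and 5.18-fold for Rps27l, whose lowest cluster had 1 UMI. Cell by cell, given each cell's ribosomal total, the median dispersion was 1.05.

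**Figure D5:**
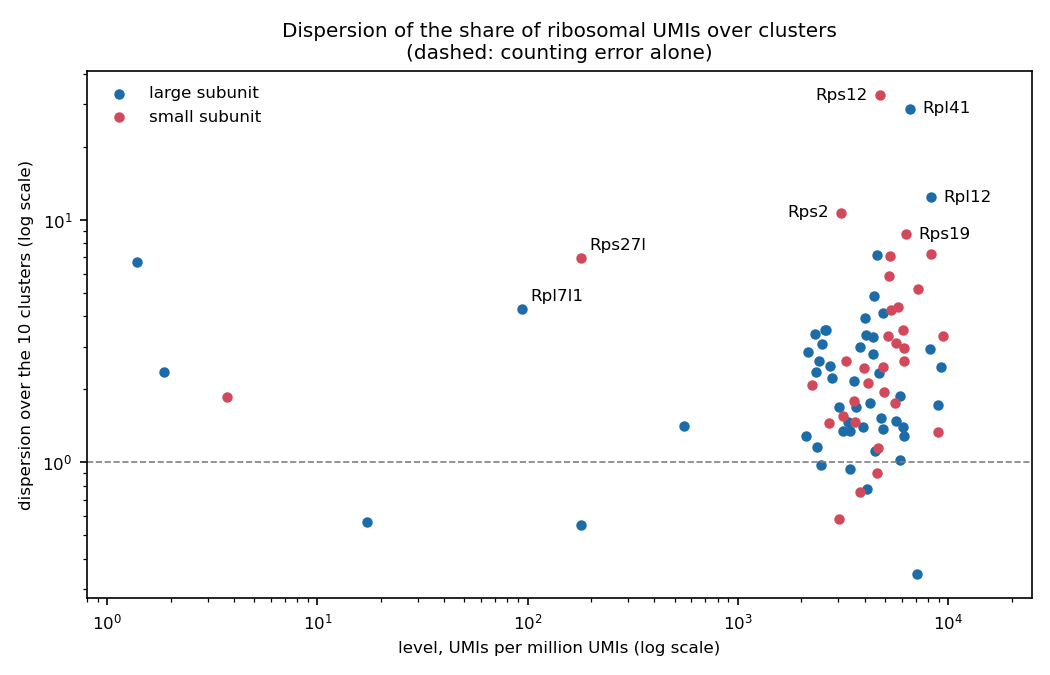
Dispersion of each member's share of ribosomal UMIs over the 10 clusters against its level (both axes log), with a dashed line at the value of counting error alone. Rps12 (32.6) and Rpl41 (28.8) stand apart from the rest, of which Rpl12 is highest at 12.4. At low levels Rps27l (6.93), Rpl7l1 (4.27) and Rpl22l1 (1.41) stand above the line. So do Rpl3l (6.72), Rpl39l (2.35) and Rps4l (1.87), but on only 3, 4 and 8 UMIs.

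Members were also compared pair by pair from cell to cell. Over the cells of the T cell clusters (93.3% of all kept cells), Pearson residuals were correlated for all 2850 pairs of the 76 members above 1000 CPM, which leaves out Rps27l and Rpl7l1. The points are cells of 1 library that share its depth, and they include the cells behind the departures above. On all UMIs the median r was 0.12. Once each cell's ribosomal total was taken as given, which by construction puts the average slightly below 0, the median was −0.012 and the range −0.22 to 0.25. The highest pair was Rps12 and Rpl41 (0.25), followed by Rps2 with Rps12 (0.17) and Rps2 with Rpl41 (0.14). These are weak correlations in sparse counts and are given as a description.

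Other genes of the translation machinery were read from lists. Of 25 translation factors with enough UMIs, 3 were at least 1.5-fold higher in activated cells and 0 lower, where 22.1% of all genes were higher and 9.91% lower. The 3 were Eif4h (2.12), Eif3c (1.74) and Eif2s2 (1.61). Scaled to non-ribosomal UMIs, 1 was higher and 5 lower, with a median log2 ratio of −0.39, where the median of all other genes was −0.0094. The list's median log2 ratio was −0.16, against −0.53 for the ribosomal protein genes and 0.22 for all other genes. Of 17 other mRNAs known for a TOP tract, Vim, an intermediate filament gene, was higher (2.98) and Cct4, a chaperonin subunit, was lower (0.602), while Gnb2l1 (Rack1), a scaffold on the small subunit, was at 0.734 and so near the ribosomal trend. Their median log2 ratio was −0.22. Scaled to non-ribosomal UMIs, 1 of the 17 was higher and 5 lower, with a median of −0.45.

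Of 10 ribosome biogenesis genes, 1 was at least 1.5-fold higher and 2 lower, beside the same 22.1% and 9.91% of all genes. Polr1d, a subunit shared by RNA polymerases I and III, was at 1.56, and the snoRNP genes Nop10 and Fbl were at 0.573 and 0.596, both with intervals that held 1. The list's median log2 ratio was −0.32. Scaled to non-ribosomal UMIs, 0 were higher and 4 lower, with a median of −0.55. Mitochondrial ribosomal proteins, which build a separate ribosome, were measured too thinly, with 5 of 77 rows passing the minimum. Mrpl23 (1.72) was higher and Mrpl30 (0.383) lower, Mrps16 was at 1.40, and the median log2 ratio was 0.46. Scaled to non-ribosomal UMIs, 0 of the 5 were higher and 1 lower, with a median of 0.22.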

How the data were processed

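The values are raw UMI counts of genes in cells, deposited by the authors as a single matrix. The submitters' processing notes name TopHat2, SAMtools and the mm10 build. Their settings, the annotation and the treatment of reads with several matches are not stated there.

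Cells were clustered on Pearson residuals (overdispersion 100) of 1000 variable genes, with 15 components, 20 neighbors and Leiden at resolution 0.8 (leidenalg 0.10.2, Python 3.11.15). Ribosomal protein and pseudogene rows, T cell receptor segments and the pathway lists were left out of the features. A name needed 3 markers of a list at 1.5-fold or more and a median ratio of at least 1.5. Of 13 marker lists, those for conventional T, CD8 T, erythroid, epithelial and stromal cells named no cluster. Doublets were kept, since Scrublet (scanpy 1.11.5) called 0 cells at an expected rate of 5% and so cannot be taken to have worked.

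Intervals are exact at 95% (Poisson or Clopper-Pearson). The ratio step was run on simulated counts, pooled per class with counting error alone, as the intervals assume. That run cannot show how the intervals or the departure rule behave under spread between cells. Named members were the 10 highest and 5 lowest levels, the 6 highest and 6 lowest departures, the 3 at each end for other clusters, the 5 highest dispersions, paralogs with partners, P stalk genes and Rpsa, and 3 genes of each pathway list. Rpl23, the cluster 4 values of Rps2 and the examples among members 1.5-fold lower were chosen after their values were seen. Some genes that met these rules are not reported here. Members, lists and rules were chosen with earlier results of these data known. Start windows came from RefSeq, and lengths and shared words from GENCODE M21.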

Additional observations from a re-analysis of the deposited data

Results flagged for a closer look

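Rows named as ribosomal pseudogenes, which are not members, held signal: 4 of 6 such rows had UMIs, 11409 in all, or 0.529% of the UMIs. Rps15a-ps6 was the largest, with 4777 UMIs, and stood between 0.356 and 0.376 UMIs per UMI of Rps15a in all 10 clusters. Rpl31-ps12 stood at 0.303 UMIs per UMI of Rpl31 (0.256 to 0.346 over clusters), Rps15a-ps4 at 0.188 per UMI of Rps15a (0.118 to 0.205) and Rps19-ps3 at 0.112 per UMI of Rps19 (0.0156 to 0.149). Rps15a-ps6 shared 62.96% of the 31-base words of the Rps15a transcript end, and Rpl31-ps12 77.8% of those of Rpl31.

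The cells set aside for having under 500 UMIs, 8.22% of all, were used in no comparison. Their pooled ribosomal share was 32.3% (31.98 to 32.67%), beside 32.01% in the shallowest of the 4 bins of kept cells.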

How the results depend on the processing

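The named classes depended on the clustering. Activated and resting Treg-like clusters were both named with 10 components and with 2000 variable genes, but only 30.3% and 50.4% of the activated cells were then among those of the main clustering. With 30 components or a minimum of 300 UMIs neither was named. Only the activated class was named at 1000 UMIs and with split UMIs, and only the resting class with residuals on non-ribosomal UMIs. Those 5 settings give no value for this comparison. The main residuals were set on all UMIs, ribosomal ones included, and without these no activated class was named. How far the ribosomal share shaped the main classes was not tested. The residuals on non-ribosomal UMIs, the splits by depth and the settings against all other T cells that also changed the UMIs were chosen after seeing the data.

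The main log2 ratio of the ribosomal share, −0.51, was −0.36 with 10 components, −0.36 with 2000 variable genes, −0.32 with classes from marker UMIs, −0.53 in cells below the median UMI count, −0.55 with split UMIs against all other T cells and −0.25 at 1000 UMIs against all other T cells. The count of members at least 1.5-fold lower, 24, was 5 with 10 components, 3 with 2000 variable genes, 3 with marker classes and 1 at 1000 UMIs against all other T cells. Scaled to non-ribosomal UMIs it was 63, a scale that moves the median log2 ratio of other genes from 0.22 to −0.0094. The count of departing members, 4, was 2 with marker classes, 7 in cells below and 7 in cells at or above the median UMI count, and 10 with split UMIs against all other T cells.

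At 1000 UMIs against all other T cells Rpl35a and Rpl8 changed sign, to log2 values of 0.016 and 0.15. A minimum of 200 UMIs leaves Rps27l out. Rpl26, whose interval held 1, ran from −0.32 to 0.67 over 10 alternatives. The B cell-like count of 3 stayed between 2 and 4 in 13 alternatives. The alternatives for Rpl26 and for this count include leaving out Scrublet calls, of which there were 0, so that setting repeats the main result. The ribosomal share of UMIs was 35.36% at 300 UMIs, 36.7% at 1000 UMIs and 34.8% with letter suffixes only, and the median level was 4302.5 CPM at 1000 UMIs and 5219 CPM per kb of transcript. No paired analysis was possible because there is 1 library. At a mean of 1049 UMIs per cell, members below 100 CPM rest on few UMIs per cluster.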

Other observations

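Genes that are not members but whose level per non-ribosomal UMI followed the ribosomal share most closely over the 10 clusters were ranked by Pearson r, among 1447 genes with at least 200 UMIs and a median r of 0.078. The points share 1 library. Eef1a1, the elongation factor that delivers aminoacyl-tRNA, came first, with r of 0.97 and a level of 15272 to 26398 CPM of the non-ribosomal UMIs. Gnb2l1 (Rack1) closed the first 5, with r of 0.95 and 4587 to 9393. Between them stood Gm6525, Gm6654 and Gm6251 (0.96 each). Of these, Gm6525 shared 27.8% of the 31-base words of the Rpl36a transcript end and Gm6654 51.5% of those of Rps26.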
